A study of Mus musculus with 6 samples.

Results

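The decision to enter mitosis was followed at the RNA level through 10 genes of the switch that activates the mitotic kinase CDK1: *Wee1*, *Pkmyt1*, *Cdc25a*, *Cdc25b*, *Cdc25c*, *Cdk1*, *Ccnb1*, *Ccnb2*, *Chek1* and *Chek2*. They were taken as a list of names and not by a cut on their measured values, though earlier results of these data were known. The platform annotation gave 9 of the 10 genes a probe set of their own, 1 each, out of 19939 genes with such a probe set, and *Ccnb1* was not analysed here. RNA came from dorsal skin of 3 *Bmal1*+/- mice, the controls, and 3 *Bmal1*-/- littermates, which lack both copies of the clock transcription factor BMAL1. All were in the C57BL/6J background, were in telogen, when hair follicles rest, at postnatal day 22, and had an array to themselves. The groups differed in sex as well as genotype: *Bmal1*+/- replicate 1 was male and the other 5 mice were female. The labels of that mouse also give its age as postnatal day 23 in one place. The methods give an afternoon window of tissue collection for other arrays of the study, and for these mice say that RNA extraction was done as for those arrays, without stating the hour. The mutation is carried by every cell of the body, and whole skin mixes epidermis, follicles, dermis, fat, muscle and vessels.

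CDK1 bound to a B-type cyclin drives a cell from G2 into mitosis. Until then the kinases WEE1 and PKMYT1 hold CDK1 inactive by phosphorylating it, and the CDC25 phosphatases remove those phosphates. When DNA is damaged or replication stalls, the checkpoint kinases CHK1 and CHK2 (from *Chek1* and *Chek2*) restrain the CDC25 phosphatases, so that the cell waits. Much of this control acts on proteins, which arrays do not measure. *Wee1* is also known as a gene that the CLOCK/BMAL1 pair activates through E-boxes, and in telogen skin most follicle cells rest while basal keratinocytes of the epidermis go on dividing.

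RefSeq promoters (GRCm38.p6) were matched for 7 of the 10 genes, *Ccnb1*, *Ccnb2*, *Cdc25a*, *Cdc25b*, *Cdk1*, *Chek1* and *Chek2*; *Wee1*, *Pkmyt1* and *Cdc25c* had no entry in the table. The 250 bases before the start of 3 of them are printed 5′ to 3′: *Cdk1* and *Ccnb2*, whose RNAs were both lowest in the same *Bmal1*-/- mouse, and *Cdc25b*, the member that passed the test. The RNA of *Chek1*, whose promoter is not printed, was also lowest in the mouse that was lowest for *Cdk1* and *Ccnb2*. Capitals mark matches to the letters searched on both strands: the E-box CACGTG, the E′-box CACGTT (read as AACGTG where it lies on the other strand), the D-box TTATGTAA, the CCAAT box (likewise read as ATTGG), the CHR element TTTGAA or TTCGAA, and the E2F site TTTCCCGC or TTTGGCGC.
Cdk1 (chr10:69352913-69353162, minus strand): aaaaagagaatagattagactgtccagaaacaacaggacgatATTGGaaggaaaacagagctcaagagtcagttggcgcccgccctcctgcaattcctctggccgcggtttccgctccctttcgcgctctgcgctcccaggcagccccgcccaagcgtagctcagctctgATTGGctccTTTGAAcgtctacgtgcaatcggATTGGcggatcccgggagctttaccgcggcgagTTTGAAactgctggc
Ccnb2 (chr9:70421555-70421804, minus strand): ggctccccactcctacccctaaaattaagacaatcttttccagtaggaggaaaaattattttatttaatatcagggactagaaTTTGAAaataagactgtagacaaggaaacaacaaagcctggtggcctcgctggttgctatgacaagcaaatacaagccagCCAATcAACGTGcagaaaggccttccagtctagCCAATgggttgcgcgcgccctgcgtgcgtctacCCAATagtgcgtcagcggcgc
Cdc25b (chr2:131186698-131186947, plus strand): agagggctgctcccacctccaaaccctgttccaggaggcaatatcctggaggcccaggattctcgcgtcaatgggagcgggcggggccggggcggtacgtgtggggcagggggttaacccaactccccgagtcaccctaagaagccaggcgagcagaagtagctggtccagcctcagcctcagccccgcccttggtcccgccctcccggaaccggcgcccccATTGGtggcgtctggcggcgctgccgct
The CHR letters, an element known from genes expressed in G2 and mitosis, stood in the *Cdk1* and *Ccnb2* promoters only, 2 of the 7, and in 17.1% of the 32851 promoters of the table. In *Cdk1* they lay 71 to 66 and 15 to 10 bases before the start, and in *Ccnb2* 167 to 162 bases before it. A CCAAT box stood in 6 of the 7 (33.8% of all promoters), on the other strand in *Cdc25b* at 28 to 24 bases before the start, and *Chek1* was the promoter with no match of any kind. The E2F letters stood in *Cdc25a* and *Chek2* (1.3% of all promoters). None of the 7 held the canonical E-box (6.02% of all promoters) or the D-box (0.819%), and the E′-box stood in *Ccnb2* alone (3.85%). These are matches of letters in a short window and show neither binding nor its absence.

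The deposited values were probe set intensities on a linear scale, and the levels of different genes are not compared. Differences are log2 fold changes of intensity + 16, *Bmal1*-/- minus *Bmal1*+/-, and called means a limma p under 0.05 after Benjamini-Hochberg adjustment over the 23410 probe sets tested. The median intensity of the arrays ran from 219 to 235.5, and the number of arrays, 3 per genotype, limits the precision of every value. The basal keratinocyte gene *Krt5* read 10078 to 12399 in all mice. Genes listed as absent from skin were not at 0: *Alb* read 75.4 to 147, *Apoa1* 277 to 374, *Ins2* 176 to 192 and *Snap25* 37.5 to 60.8, so an intensity above 0 does not by itself show expression. The targeted gene, listed as *Arntl*, read 325 to 365 in *Bmal1*+/- mice and 569 to 664 in *Bmal1*-/- mice, and since no source used here places its probes relative to the deletion, it does not check the labels. Of 16 clock genes measured, 7 were called lower and 4 higher, against 0.132% and 0.0982% of all probe sets. No growing-follicle marker of 12 measured was called. *Bmal1*-/- replicates 1 and 3 stood apart for the genes described here. In *Bmal1*-/- replicate 3, all 22 mitotic marker genes lay below the mean of its 2 genotype mates, by a median of 0.61 in log2 units. In *Bmal1*-/- replicate 1, *Wee1* exceeded the mean of replicates 2 and 3 by 0.85 in log2 units. Results for the members, *Per1*, *Fosb*, *Nrg4* and the mitotic genes are given with and without the mouse concerned.

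Of the 9 measured members, 1 was called, *Cdc25b*, which was lower in *Bmal1*-/- skin, against 0.132% of all probe sets called lower and 0.0982% called higher. In 4 members, *Wee1*, *Cdc25b*, *Chek1* and *Chek2*, all *Bmal1*-/- mice lay below all *Bmal1*+/- mice, against 7.68% of all probe sets, and in none did they all lie above (6.99% of all probe sets). At an unadjusted p under 0.05 there were 3 members, *Wee1*, *Cdc25b* and *Chek1*, all lower, where 4.6% of all probe sets were lower and 4.17% higher. At an unadjusted limma p under 0.001 there was 1, *Cdc25b*, where 0.397% of all probe sets were lower. The methods set that threshold on Cyber-T p-values. In the Cyber-T type test run here, the unadjusted p was 8.1e-06 for *Wee1*, 1.6e-06 for *Cdc25b* and 0.00025 for *Chek1*. It was at least 0.20 for the other members. That test called 177 probe sets lower and 96 higher at an adjusted p under 0.05. The median difference over the 9 members was −0.14, with 7 of 9 below 0, and that over all probe sets was 0.01, with 45.3% below 0. Without *Bmal1*-/- replicate 3 the members' median was 0.02, with 5 of 9 above 0. In whole skin, fewer cells that express a gene and less of its RNA per cell cannot be told apart.

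**Figure D1:**
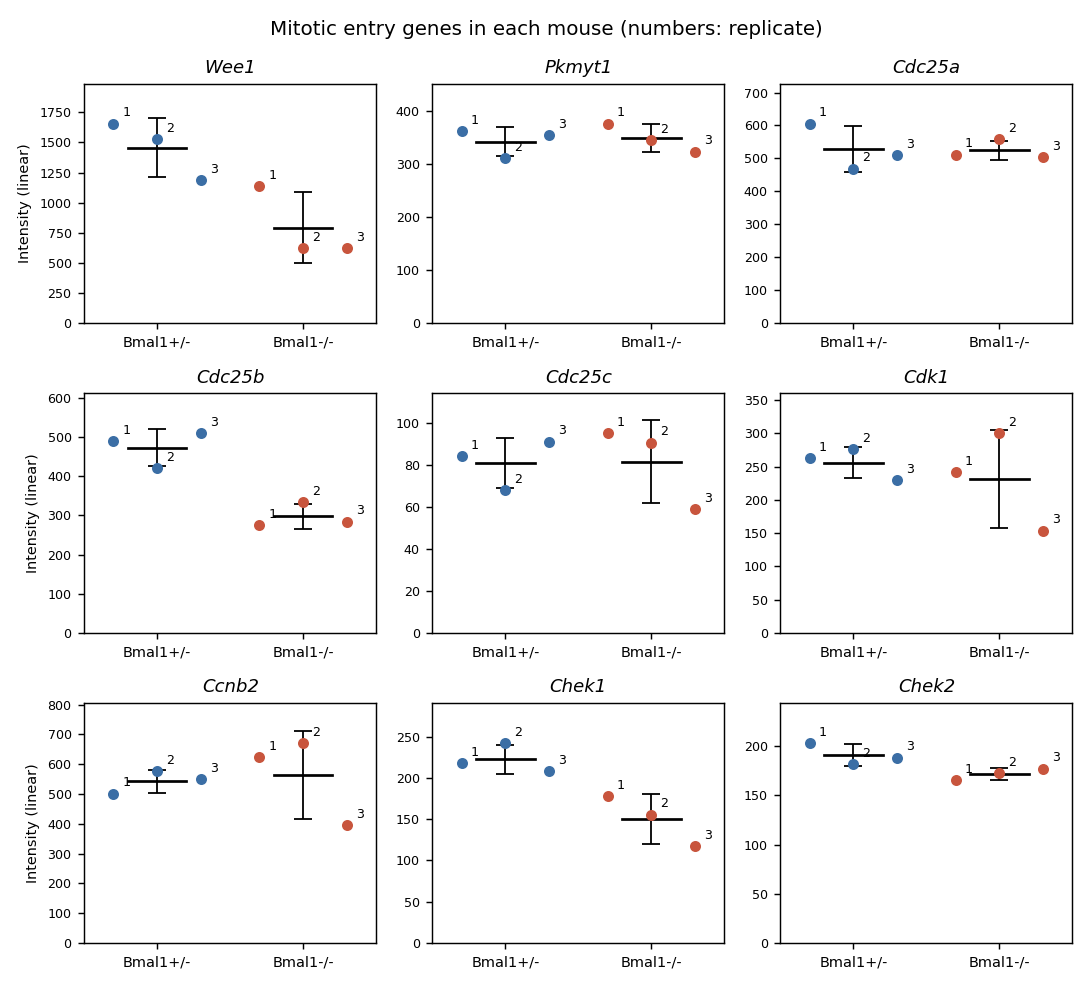
Intensity (linear scale) of the 9 measured members in each mouse, *Bmal1*+/- in blue and *Bmal1*-/- in red; numbers are replicates, and bars give the mean ± SD of 3 mice. The genotypes separate for *Wee1*, *Cdc25b*, *Chek1* and *Chek2*. *Bmal1*-/- replicate 3 is the low point for *Cdc25c*, *Cdk1*, *Ccnb2*, *Chek1* and, narrowly, *Wee1*.

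**Figure D2:**
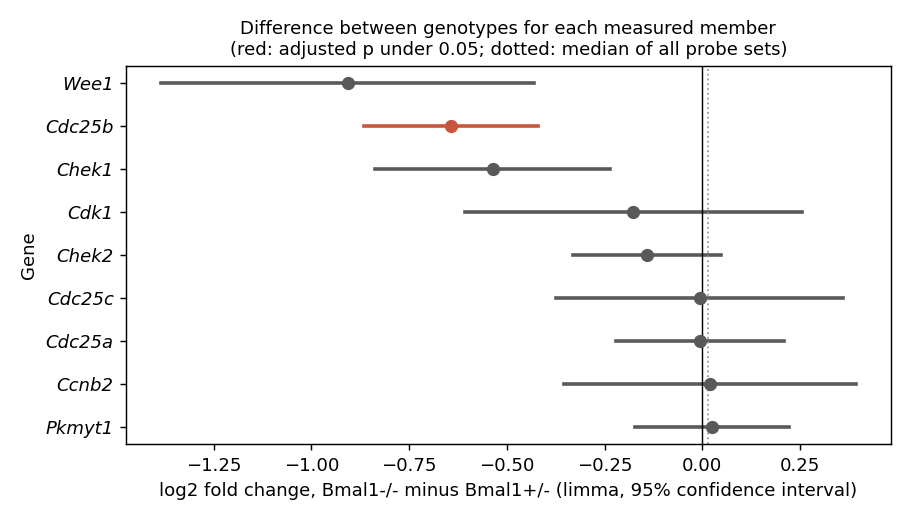
log2 fold change of each measured member, *Bmal1*-/- minus *Bmal1*+/-, with its 95% confidence interval from limma. The intervals of *Wee1*, *Cdc25b* and *Chek1* lie below 0, and *Cdc25b*, in red, is the one with an adjusted p under 0.05; the dotted line is the median of all probe sets, 0.01.

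Of the inhibitory kinases, *Wee1* (probe set 10556266) had the largest difference of any member and did not pass the test. Its intensity was 1656, 1529 and 1186 in *Bmal1*+/- mice and 1135, 624 and 623 in *Bmal1*-/- mice. The genotypes did not overlap, but the highest *Bmal1*-/- mouse, replicate 1, came within 1.04-fold of the lowest *Bmal1*+/- mouse, while the other 2 *Bmal1*-/- mice were nearly equal. The means were 1457 ± 244 and 794 ± 295 (SD, n = 3 each), for a log2 fold change of −0.91 (SE 0.21, 95% CI −1.38 to −0.43, limma adjusted p = 0.20). The two-sided exact permutation test gave p = 0.1, the smallest that 3 against 3 mice allow. The spread of *Wee1* between mice of the same genotype was large: its residual SD was 0.39 on the log2 scale, at percentile 99.1 of all probe sets, whose median was 0.11. Without *Bmal1*-/- replicate 1 the difference was −1.19 with an adjusted p of 0.013, and without each of the other mice the adjusted p stayed between 0.19 and 0.50. Replicate 1 was singled out on *Wee1* itself, so the values without it are a description.

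The profile of *Wee1* over the 6 mice was set against those of 19938 other genes, with likeness measured as the root mean square difference of mean-centred log2 values. The 5 closest were *Mup5*, *Per1*, *Slc7a2*, *Fosb* and *Nrg4*, at 0.15, 0.21, 0.25, 0.25 and 0.26. *Per1*, a clock repressor that CLOCK/BMAL1 activates, was the second closest; its intensity was 993, 937 and 665 in *Bmal1*+/- mice and 846, 275 and 365 in *Bmal1*-/- mice. As for *Wee1*, *Bmal1*-/- replicate 1 was the high mouse of its genotype, here above *Bmal1*+/- replicate 3, so that the genotypes overlapped (log2 fold change −0.93, adjusted p = 0.46, and −1.38 with an adjusted p of 0.028 without that mouse). *Slc7a2*, a transporter of cationic amino acids, had 982, 790.2 and 735 in *Bmal1*+/- mice and 475, 439 and 426 in *Bmal1*-/- mice. It was called lower (−0.87, adjusted p = 0.0081), and its *Bmal1*-/- mice lay close together.

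*Mup5*, of the major urinary protein family, had 103, 90.1 and 73.9 against 51.3, 36.5 and 32.8 (−0.91, adjusted p = 0.066), and the share of its close relatives in the signal of this probe set was not tested. *Fosb*, a subunit of the AP-1 transcription factor, had 317, 343 and 279.7 against 319, 187 and 191 (−0.44, adjusted p = 0.51). *Nrg4*, an EGF-family ligand, had 403, 563.5 and 306 against 378, 243 and 218 (−0.57, adjusted p = 0.51). In both, *Bmal1*-/- replicate 1 lay among the *Bmal1*+/- mice and the other 2 lay below them all, and without replicate 1 the differences were −0.68 (adjusted p = 0.070) for *Fosb* and −0.80 (adjusted p = 0.38) for *Nrg4*. By this measure, which counts the size of a difference as well as its pattern, the clock genes looked up lay far apart. Among the 19938 genes *Tef* ranked 46, *Per2* 48, *Bhlhe41* 7164 and *Ciart* 19830. These and *Per1* were picked with earlier results of these data known, and the ranks of the other clock genes are not given. *Ciart* had the same order of the 6 mice as *Wee1*, but a larger log2 fold change, −2.49. This likeness is a description over 6 mice, which all these genes share.

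**Figure D3:**
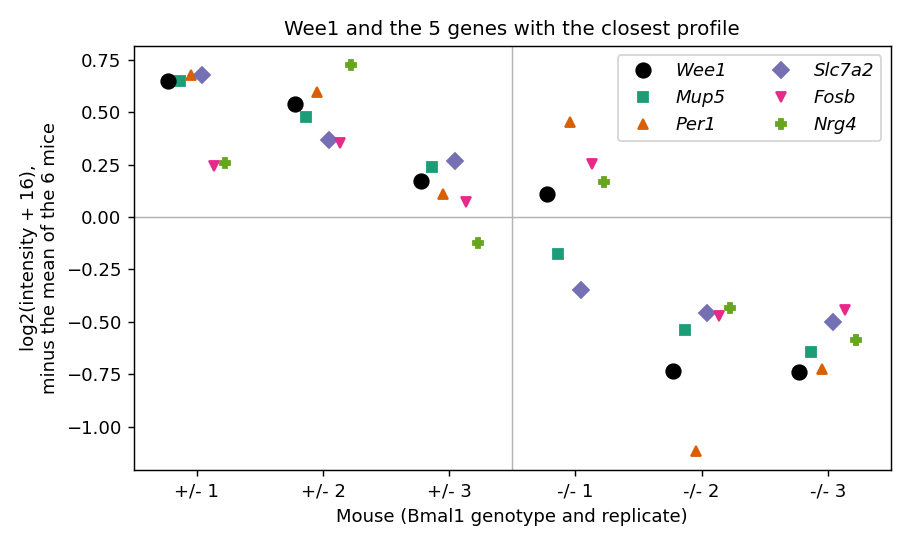
log2(intensity + 16) of *Wee1* and the 5 genes with the closest profile in each of the 6 mice, minus each gene's mean over the 6. In *Bmal1*-/- replicates 2 and 3 all 6 genes lie below 0, while in *Bmal1*-/- replicate 1 *Wee1*, *Per1*, *Fosb* and *Nrg4* lie above it and *Mup5* and *Slc7a2* below.

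*Pkmyt1* (10442331), the membrane-bound kinase that inhibits CDK1 alongside WEE1, did not pass the test. Its intensity was 361, 311 and 354 in *Bmal1*+/- mice and 376, 345 and 323 in *Bmal1*-/- mice, and the genotypes overlapped. The log2 fold change was 0.03 (SE 0.09, 95% CI −0.17 to 0.22, adjusted p = 0.95), so that a change of more than 0.22 in either direction lay outside the interval. Whether the differences of the 2 kinases differed from each other was not tested.

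Among the CDC25 phosphatases, *Cdc25b* (10476252), which starts CDK1 activation at the centrosome in late G2, fell in *Bmal1*-/- skin. Intensities were 490, 420 and 509 in *Bmal1*+/- mice and 275, 333 and 284 in *Bmal1*-/- mice. The genotypes were fully separate, with the lowest *Bmal1*+/- value 1.26 times the highest *Bmal1*-/- value, and neither replicate 1 nor replicate 3 stood apart. The means were 473 ± 47.1 and 297.5 ± 31.3 (SD, n = 3 each), for a log2 fold change of −0.64 (SE 0.10, 95% CI −0.86 to −0.42, limma adjusted p = 0.043), or 1.56-fold lower. The gene ranked 48 by p among all probe sets, and its exact permutation p was 0.1, the smallest possible.

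The call was close to the threshold. It was lost on leaving out *Bmal1*+/- replicate 1, the male (adjusted p = 0.17), *Bmal1*+/- replicate 3 (0.14), *Bmal1*-/- replicate 1 (0.14) or *Bmal1*-/- replicate 3 (0.14), while the log2 fold change stayed between −0.72 and −0.59. A term for sex gave an adjusted p of 0.16.

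The other phosphatases did not pass the test. *Cdc25a* (10589420), which acts from the G1/S boundary on, had 606, 469 and 511 in *Bmal1*+/- mice and 511, 558 and 503 in *Bmal1*-/- mice, all within the *Bmal1*+/- range (−0.01, SE 0.10, 95% CI −0.22 to 0.21, adjusted p = 0.99). *Cdc25c* (10458195), which acts at mitotic entry, had 84.2, 67.9 and 91.1 in *Bmal1*+/- mice and 94.997, 90.6 and 59.1 in *Bmal1*-/- mice. Its highest and lowest values were both in *Bmal1*-/- mice, the lowest in replicate 3, and the log2 fold change was −0.01 (SE 0.16, 95% CI −0.37 to 0.36) with all mice and 0.17 (adjusted p = 0.86) without replicate 3.

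*Cdk1* and *Ccnb2*, the kinase and one of its B-type cyclins, did not pass the test either, and their values were widely spread among *Bmal1*-/- mice. *Cdk1* (10369815) had 262, 276 and 230 in *Bmal1*+/- mice and 242, 299.8 and 154 in *Bmal1*-/- mice. *Ccnb2* (10594774) had 501, 576 and 550.3 in *Bmal1*+/- mice and 625, 670.3 and 395 in *Bmal1*-/- mice. In both genes *Bmal1*-/- replicate 3 was the lowest of the 6 mice and replicate 2 the highest, so that the *Bmal1*-/- values enclosed those of *Bmal1*+/-.

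The means of *Cdk1* were 256 ± 23.8 and 232 ± 73.4, with a log2 fold change of −0.18 (SE 0.19, 95% CI −0.61 to 0.25, adjusted p = 0.83). Those of *Ccnb2* were 543 ± 38.2 and 563 ± 148, with a log2 fold change of 0.02 (SE 0.17, 95% CI −0.35 to 0.39, adjusted p = 0.98). Their residual SDs stood at percentiles 98.3 and 97.0 of all probe sets. Without *Bmal1*-/- replicate 3 the differences were 0.07 for *Cdk1* (adjusted p = 0.93) and 0.25 for *Ccnb2* (adjusted p = 0.59).

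The same mouse was low for genes used to mark dividing cells. *Mki67*, the proliferation antigen Ki-67, had 326, 348 and 346 in *Bmal1*+/- mice and 416, 458 and 171 in *Bmal1*-/- mice. *Top2a*, the topoisomerase that untangles chromosomes before they part, had 513, 532 and 492 in *Bmal1*+/- mice and 581, 594 and 284 in *Bmal1*-/- mice. In each, *Bmal1*-/- replicates 1 and 2 lay above all *Bmal1*+/- mice and replicate 3 lay far below them. The log2 fold changes were −0.08 for *Mki67* and −0.14 for *Top2a* with all mice, and 0.35 and 0.19 without *Bmal1*-/- replicate 3. Both were chosen as examples after their values were seen.

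Of the 22 mitotic markers, all measured, none was called by limma, 0 reached an unadjusted p under 0.05 and 0 were called by the Cyber-T type test. Their median difference was 0.00, with 11 below 0 and 11 above, between −0.14 and 0.18. The smallest p-values belonged to *Ube2c*, the ubiquitin-conjugating enzyme of mitotic exit (0.16, adjusted p = 0.66), and *Ndc80*, of the kinetochore (0.16, adjusted p = 0.67). *Bmal1*-/- replicate 3 was the lowest of the 6 mice in 20 of the 22 markers, against 12.9% of all probe sets, and below the other 2 *Bmal1*-/- mice's mean in 22, against 43.4% of all probe sets. The summed intensity of the markers was 4437 to 4521 in *Bmal1*+/- mice and 5080, 5311 and 3296 in *Bmal1*-/- mice. Without replicate 3 all 22 lay above 0 with a median of 0.20 (52.1% of all probe sets, median 0.01), and 0 were called. *Bmal1*-/- replicates 1 and 2 lay above all *Bmal1*+/- mice in 18 of 22, against 10.8% of all probe sets. Replicate 3 was singled out on these same genes, so the values without it are a description.

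Other markers moved in *Bmal1*-/- replicate 3 too. All 4 basal keratinocyte markers, *Krt5*, *Krt14*, *Krt15* and *Trp63*, were lowest of the 6 mice there, by a median of −0.18 in log2 units against its 2 genotype mates, and their summed intensity was 23914 against 27132 and 27592. The medians for endothelium, adipocyte, leukocyte and muscle markers were 0.38, 0.32, 0.15 and 0.11 above those mice. For fibroblast, suprabasal keratinocyte and melanocyte markers the medians against those mice were −0.09, −0.11 and −0.12. The part of these shifts in the low mitotic genes was not tested.

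**Figure D4:**
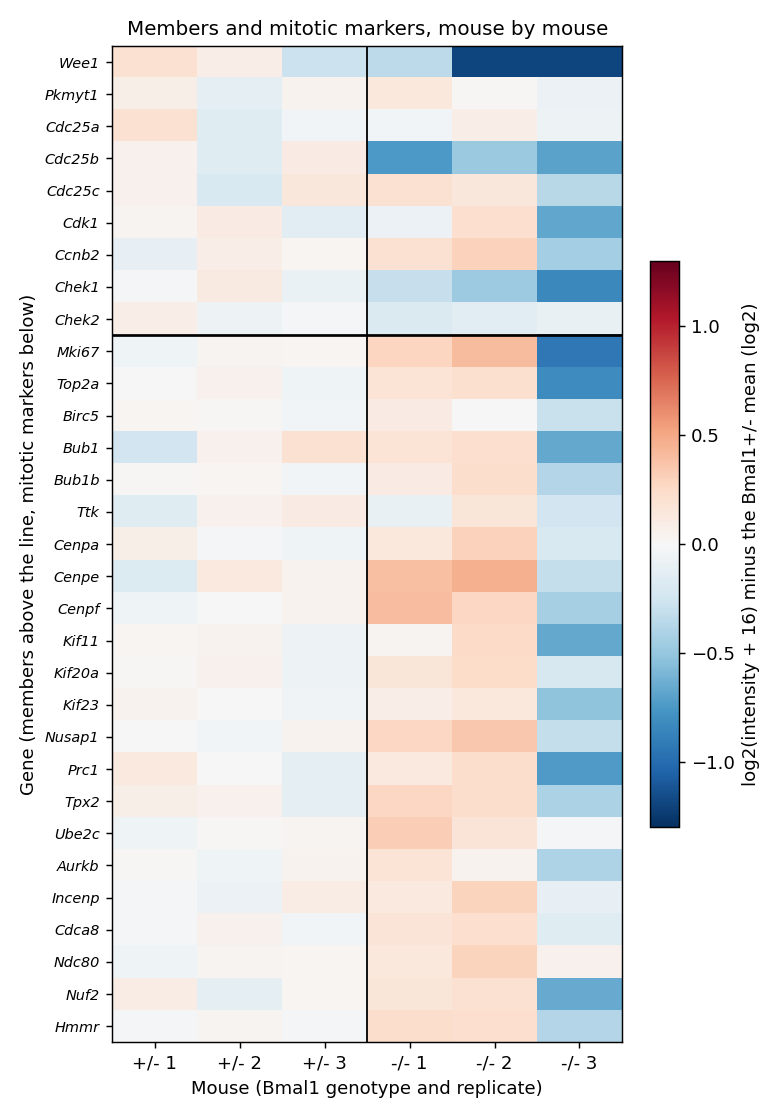
The 9 members (above the line) and the 22 mitotic markers in each mouse, as log2(intensity + 16) minus the gene's *Bmal1*+/- mean; red is higher and blue lower. The *Bmal1*-/- replicate 3 column is blue for nearly all mitotic markers and for *Cdk1*, *Ccnb2* and *Cdc25c*. *Wee1*, *Cdc25b*, *Chek1* and, faintly, *Chek2* are blue in all 3 *Bmal1*-/- mice.

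Among the checkpoint kinases, *Chek1* (10592201), the effector of ATR at stalled forks, was lower in every *Bmal1*-/- mouse but did not pass the test. Its intensity was 218, 242 and 209 in *Bmal1*+/- mice and 178, 156 and 118 in *Bmal1*-/- mice. The genotypes did not overlap, with a gap of 1.17-fold, and *Bmal1*-/- replicate 3 was again the lowest. The means were 223 ± 17.4 and 150.4 ± 30.4 (SD, n = 3 each), for a log2 fold change of −0.54 (SE 0.13, 95% CI −0.84 to −0.23, adjusted p = 0.24). Without *Bmal1*-/- replicate 3 it was −0.39 (adjusted p = 0.45). The part of that mouse's low mitotic genes in the difference was not tested.

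*Chek2* (10524266), the effector of ATM after double-strand breaks, had 203, 182 and 189 in *Bmal1*+/- mice and 165, 173 and 177 in *Bmal1*-/- mice. The genotypes did not overlap, by a margin of 1.02-fold, and the log2 fold change was −0.14 (SE 0.08, 95% CI −0.33 to 0.05, adjusted p = 0.67).

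Upstream of both kinases, 19 of 20 listed checkpoint sensors and mediators were measured and none was called by limma or by the Cyber-T type test. Of the 19, 16 lay below 0, against 45.3% of all probe sets. At an unadjusted p under 0.05, 5 were lower and 0 higher, against 4.6% and 4.17%, and in 6 the genotypes did not overlap, all lower, against 7.68%. The smallest p-values belonged to *Topbp1* and *Timeless*. *Topbp1*, which activates ATR, had 742, 716 and 718 in *Bmal1*+/- mice and 627, 634.5 and 567 in *Bmal1*-/- mice (−0.25, adjusted p = 0.28). *Timeless*, of the complex that protects the replication fork, had 177, 159 and 155 against 125, 132 and 123 (−0.33, adjusted p = 0.30). In both, all *Bmal1*-/- mice lay below all *Bmal1*+/- mice. The other 3 at that threshold, named after their values were seen, were *Atm* (−0.24), *Clspn* (−0.30) and *Brca1* (−0.30), with adjusted p of 0.38, 0.51 and 0.44. CLSPN, the protein of *Clspn*, is the adaptor through which ATR reaches CHK1. The median of the list was −0.09, and −0.08 without *Bmal1*-/- replicate 3. That mouse was the lowest of all in 10 of the 19, against 12.9% of all probe sets. Without it the differences were −0.20 for *Topbp1*, −0.31 for *Timeless*, −0.24 for *Atm*, −0.21 for *Clspn* and −0.22 for *Brca1*.

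The remaining genes of the pathway gave 0 calls by limma. The 17 CDK1 partners and activating kinases had a median of −0.04, between −0.15 and 0.07, with 0 at an unadjusted p under 0.05; the smallest p-values were those of *Cdk2*, the S-phase kinase (−0.12, adjusted p = 0.67), and *Mnat1*, an assembly factor of the CDK-activating kinase (−0.09, adjusted p = 0.78). *Bmal1*-/- replicate 3 was lowest in 10 of the 17. One of them, *Ccna2*, the cyclin A gene of dividing cells, chosen after its values were seen, had 338, 316 and 297 in *Bmal1*+/- mice and 404, 444 and 175 in *Bmal1*-/- mice, with *Bmal1*-/- replicate 3 again lowest and replicate 2 highest (log2 fold change 0.00, and 0.40 without replicate 3). The 14 genes of WEE1 and CDC25 turnover and of the 14-3-3 proteins, which hold phosphorylated CDC25 in check, had a median of −0.03, with 0 at an unadjusted p under 0.05. *Sfn*, the 14-3-3 protein of keratinocytes, stood at 0.14 (adjusted p = 0.61) and *Skp1*, of the SCF ubiquitin ligase, at −0.14 (adjusted p = 0.64). The 16 transcription factors of G2/M genes had a median of −0.06, with 2 lower at an unadjusted p under 0.05, against 4.6% of all probe sets: *Tfdp1*, the partner of E2F proteins (−0.19, adjusted p = 0.33), and *Rbl1*, the pocket protein p107 (−0.25, adjusted p = 0.44).

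Other genes bear on the stage of the skin. Of the 12 growing-follicle markers, which had a median of −0.03, 0 were called by limma or by the Cyber-T type test. At an unadjusted limma p under 0.05, 1 was lower and 1 higher, against 4.6% and 4.17% of all probe sets. *Bmal1*+/- replicate 3 was highest of the 6 mice for the inner root sheath keratins *Krt25* (164, against 56.5 and 79.0 in the other *Bmal1*+/- mice), *Krt27* (234, against 80.0 and 100.2) and *Krt71* (314, against 129 and 161), with *Bmal1*-/- replicate 3 second (139, 175 and 240). Without *Bmal1*+/- replicate 3 the median of the list was 0.17. These 3 keratins were named after their values were seen. As for the rest of the list, *Krt28* and *Krt73* were also highest in *Bmal1*+/- replicate 3, though *Bmal1*-/- replicate 3 ranked 5 for *Krt28*. *Shh*, *Msx2*, *Hoxc13* and *Lef1* were highest in *Bmal1*+/- replicate 1, the male. *Krt35* and *Foxn1* were highest in *Bmal1*-/- replicate 2 and *Dlx3* in *Bmal1*-/- replicate 3. *Lef1*, a transcription factor of the hair germ and matrix, had 495, 375 and 398 in *Bmal1*+/- mice and 311, 343 and 299.6 in *Bmal1*-/- mice (−0.39, adjusted p = 0.30). *Dlx3*, a transcription factor of hair differentiation, stood at 0.28 (adjusted p = 0.41). The clock genes called lower were *Nr1d1* (−3.11), *Nr1d2* (−3.27), *Dbp* (−2.55), *Per3* (−2.18), *Ciart* (−2.49), *Tef* (−0.97) and *Hlf* (−0.62), and those called higher were *Cry1* (1.15), *Nfil3* (1.19), *Arntl* (0.79), which is *Bmal1* itself, and *Clock* (0.54). The difference of *Cdc25b* was thus of the size of that of *Hlf*, and that of *Wee1* of the size of that of *Tef*, whose *Bmal1*-/- mice spread far less (649 to 731, against 623 to 1135 for *Wee1*).

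The call of each of the 3 members with the largest differences depended on how the fit was made. Of 17 alternative settings, *Cdc25b* was past the threshold in 8, with adjusted p from 0.00063 to 0.17. *Wee1* was past it in 3, the Cyber-T type test (0.0022), the fit without *Bmal1*-/- replicate 1 and a fit with replicate number as a block, with adjusted p from 0.0022 to 0.50. *Chek1* was past it in 1, the Cyber-T type test (0.029), and otherwise ran up to 0.49. Their log2 fold changes, and that of *Chek2*, stayed below 0 in every setting, while the sign of the other 5 members turned in at least 1 setting.

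**Figure D5:**
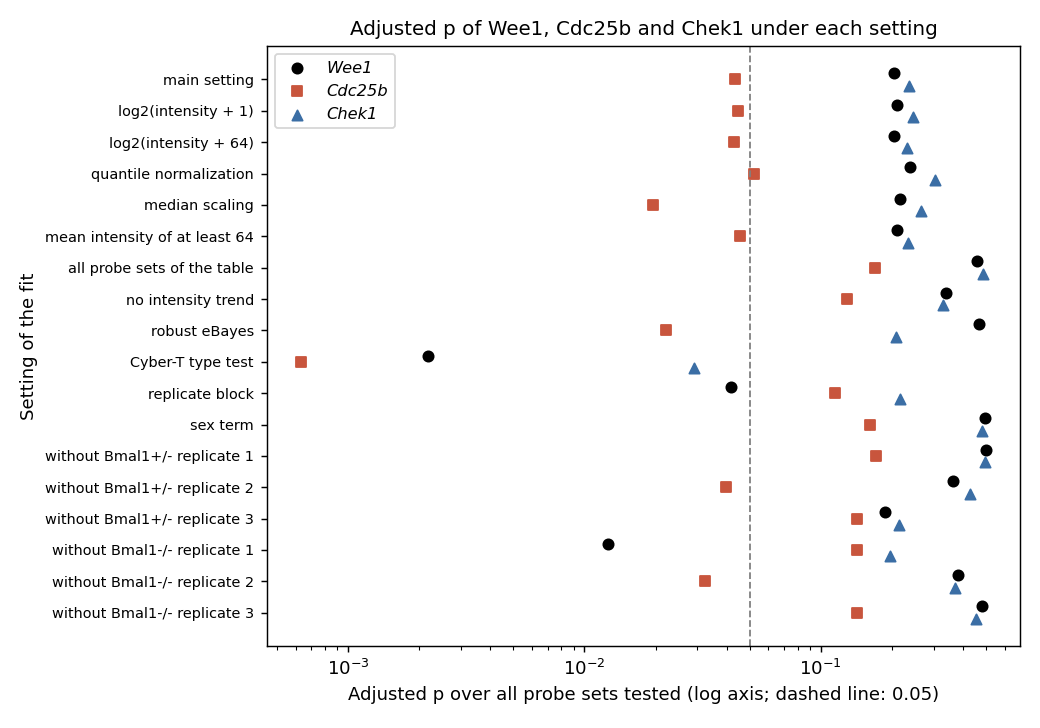
Adjusted p (log axis) of *Wee1*, *Cdc25b* and *Chek1* in the fit as reported (top row) and under each of 17 alternatives; the dashed line marks 0.05. *Cdc25b* lies to the left of the line in the top row and in 8 alternatives, *Wee1* in 3 and *Chek1* in 1.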

How the data were processed

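Total RNA of dorsal skin from 6 mice was hybridised to Affymetrix Mouse Gene 1.0 ST arrays, 1 mouse per array. The authors deposited linear intensity values per probe set, for which the submitters' processing notes name Affymetrix Expression Console 1.1 and PLIER 2.0. Background correction, normalization between arrays, filters and genome build were not given in the sources used here. Of the values of an array, 2.58% to 3.34% lay under 16, and adding 16 before the logarithm shrinks differences of dim probe sets. Groups, replicate numbers and sex came from the sample labels, which call the mice biological replicates.

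Values were analysed as log2(intensity + 16) with no further normalization. Of 35557 probe sets, the test took the 23410 with a gene symbol in the platform annotation (21789 with 1 symbol, 1621 with several, which named no gene), leaving out the 12147 without one. The package limma 3.58.1, run in R 4.3.3 with lmFit and a trended eBayes, compared *Bmal1*-/- with *Bmal1*+/-, two-sided, with Benjamini-Hochberg adjustment over all 23410. The methods name Cyber-T without its settings, so a test of that type (prior weight 10) was an alternative. Their threshold of 0.001, put here on the unadjusted limma p, was another. Other alternatives changed the offset (1 or 64), the scaling, the filter on dim probe sets (mean intensity of at least 64), the rows tested, the variance model, a replicate block or a sex term, or left out 1 array. Single genes were also compared with an exact permutation test over mice. The procedure was tested on simulated data, where a larger share of the calls of the Cyber-T type test than of limma's was false. The simulation took each probe set's residual SD in these arrays as its true spread, so it cannot rank the tests on the real arrays.

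The members, lists, tests and alternatives were chosen with earlier results of these data known. The text names the members, the called genes of each list or else the 2 with the smallest p, *Arntl*, and the 5 genes closest to *Wee1*. Clock genes ranked for likeness to *Wee1*, markers used to check the tissue and the rest of the growing-follicle list are named too. Other genes are said to be chosen after their values were seen. Promoter letters were searched in RefSeq sequence with Python 3.11.15, and figures were drawn with matplotlib 3.10.9. Some genes of the lists were not analysed here.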

Additional observations from a re-analysis of the deposited data

How the results depend on the processing

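Over 17 alternative settings of the fit, *Wee1*, *Cdc25b*, *Chek1* and *Chek2* kept their direction. The number of members called was 1, and 0 with quantile normalization, with all probe sets of the table, without the intensity trend or with the sex term, 3 with the Cyber-T type test, and 0 to 1 on leaving out 1 mouse. It was 0 without *Bmal1*+/- replicate 1, *Bmal1*+/- replicate 3 or *Bmal1*-/- replicate 3, and without *Bmal1*-/- replicate 1 the 1 member called was *Wee1* in place of *Cdc25b*. *Cdc25b* lost its call at −0.63 under quantile normalization (adjusted p = 0.052), at −0.64 with all probe sets of the table (0.17) or no trend (0.13) and at −0.62 with the sex term (0.16), which with 1 male mouse gives the same log2 fold changes as leaving that mouse out; without 1 mouse it ran from −0.72 to −0.59. *Wee1* passed at −0.91 with the Cyber-T type test and ran from −1.19, past the threshold without *Bmal1*-/- replicate 1 (adjusted p = 0.013), to −0.77 without 1 mouse. *Chek1* passed at −0.54 with the Cyber-T type test. The sign of *Cdc25a* turned under quantile normalization (0.015) and with the sex term (0.094), that of *Cdc25c* (0.020) and of *Ccnb2* (−0.035) with the sex term. Without 1 mouse *Pkmyt1* ran from −0.039 to 0.075, *Cdc25a* from −0.085 to 0.094, *Cdc25c* from −0.11 to 0.17, *Cdk1* from −0.37 to 0.073 and *Ccnb2* from −0.12 to 0.25. For *Cdc25c*, *Cdk1* and *Ccnb2* the highest of these came without *Bmal1*-/- replicate 3. The cause of these changes was not tested. With all probe sets of the table there were more rows to adjust over. The unadjusted limma p of *Cdc25b* also rose there, from 9.1e-05 to 0.00027. A left-out mouse means fewer samples.

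Across all probe sets, 31 were called lower and 23 higher. These counts were 19 and 15 with all probe sets of the table, 16 and 11 without the trend, 177 and 96 with the Cyber-T type test, and 93 and 59 at an unadjusted p under 0.001. Without 1 mouse they ran from 22 to 34 and from 13 to 23, with 15 called higher without *Bmal1*+/- replicate 2 or *Bmal1*-/- replicate 1 and 13 without *Bmal1*-/- replicate 3. Without 1 mouse the list medians ran from −0.15 to 0.023 for the members, from −0.061 to −0.006 for the CDK1 partners and from −0.084 to 0.20 for the mitotic markers, each highest without *Bmal1*-/- replicate 3, and from −0.15 to 0.17 for the growing-follicle markers, highest without *Bmal1*+/- replicate 3. Those of the turnover and 14-3-3 genes ran from −0.043 to −0.013 (−0.013 with the sex term), of the clock genes from −0.76 to −0.60, of the checkpoint genes from −0.11 to −0.076 and of the G2/M factors from −0.072 to −0.051. For the 28 genes other than members that the rule names, 458 values over all alternatives had the reported direction and side of the threshold, 13 lost a call, 5 gained one and none changed sign; genes named after their values were seen are not in these counts.

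The correlations of same-numbered deviations were 0.08, −0.35 and 0.06. With so few mice these values cannot settle whether replicate numbers pair the mice. With the replicate number as a block, *Wee1* passed at −0.91 (adjusted p = 0.042) and *Cdc25b* did not at −0.64 (adjusted p = 0.12), with 34 probe sets called lower and 20 higher. Each further probe set of a member was to be tried, but every measured member had 1. Some 3.34% of values or fewer lay under the offset on any array, and with 3 mice per genotype a single gene cannot go below an exact p of 0.1.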

Other observations

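The pigment genes of melanocytes, listed as markers of another cell type, were lower in every *Bmal1*-/- mouse without passing the test. *Dct*, an enzyme of melanin synthesis, had intensities of 1076, 785 and 728 in *Bmal1*+/- mice and 604, 533 and 474 in *Bmal1*-/- mice (log2 fold change −0.65, SE 0.14, limma adjusted p = 0.15). *Tyr*, the tyrosinase gene, stood at −0.36 (adjusted p = 0.45) and *Pmel*, of the melanosome fibrils, at −0.34 (adjusted p = 0.46). In all 3 genes the genotypes did not overlap, where 7.68% of all probe sets had every *Bmal1*-/- mouse below every *Bmal1*+/- mouse. The margin was 1.21-fold for *Dct*, 1.07-fold for *Tyr* and 1.04-fold for *Pmel*. *Bmal1*+/- replicate 1, the only male, was the highest mouse in all 3, and its part in the differences was not tested. The 3 genes are named after their values were seen.

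Among suprabasal keratinocyte markers, the cornified envelope genes *Ivl* (0.23, adjusted p = 0.37) and *Lor* (0.17, adjusted p = 0.45) were higher in every *Bmal1*-/- mouse than in any *Bmal1*+/- mouse, which held for 6.99% of all probe sets. *Krt1* (−0.14) and *Krt10* (−0.03), the keratins of the same layers, overlapped between genotypes. These genes too were named after their values were seen, and no list of markers of another cell type held a called gene.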
